A study of Mus musculus with 36 samples.

Results

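The collagen chain genes outside cartilage were taken as the genes of the deposited expression table whose symbol reads Col, a number, a, and a number, without Col2a1, Col9a1, Col9a3 and Col11a2. The pattern matched 44 of 18845 genes, and 40 were kept after those 4 exclusions. Of the 40, 9 encode fibrillar collagens, 6 encode basement membrane (type IV) collagens, and 25 encode other chains. The other chains comprise 6 of collagen VI, 7 fibril-associated, 4 transmembrane, 3 network-forming, 2 multiplexin, 1 anchoring fibril and 2 less characterised chains. Col9a2, Col10a1, Col11a1 and Col27a1, which cartilage also makes, passed the rule and are described with that in view.

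The study sequenced RNA purified by the HA tag of RiboTag mice, in which Cre recombinase switches on an HA-tagged copy of the ribosomal protein Rpl22. Cre-positive diaphragm was synapse-enriched muscle of ChAT-Cre;Ribo-tag mice, in which Cre follows Chat, the acetylcholine-synthesising gene of motor neurons. Cre-negative diaphragm was the same preparation from Ribo-tag mice without Cre, so its RNA is what the purification recovered without the tag. Spinal cord came from ChAT-Cre;Ribo-tag mice, and no Cre-negative spinal cord was analysed here. Tissue was collected at embryonic day E15.5, postnatal days P0.5 and P10, and 2 months (adult), with 3 libraries in each of 12 groups. Nothing states that the 3 libraries of a group came from separate animals, so p-values measure the spread between these libraries, which may be technical.

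Collagens are triple helices of 3 chains, often products of different genes. Fibrillar collagens (I, III, V) form the cables of tendon, fascia and endomysium and are made largely by fibroblasts, while collagen IV forms the sheet-like network of the basement membrane around muscle fibres, vessels and nerves. Collagen VI links that sheet to the fibrils, and several transmembrane and basement membrane chains (collagen XIII, XXV and minor collagen IV chains) are known at the developing or mature neuromuscular junction of mice.

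Depth was 86.0 to 107.0 M reads (M, 1000000) in Cre-positive diaphragm, 68.2 to 93.7 M in Cre-negative diaphragm and 63.7 to 71.8 M in spinal cord. Over the 36 libraries 3 reads equal 0.028 to 0.0471 CPM (reads per 1000000 reads of the library). In every group 1 library lay between the other 2 in more genes than they did (46.59 to 86.12% of genes, against at most 35.73% for the others). All such intermediate libraries were left out together in an alternative fit, and its counts are given with those of the members and of the pathway lists. That fit keeps 2 libraries per group, the outer ones for many genes, so a wider spread and fewer calls are built into it. A call lost there may be lost through this alone, which was not tested. Whether an intermediate library is independent of the other 2 of its group was not tested either. If it is not, the spread in the main fits is too narrow and their p-values are too small. The 8 skeletal muscle markers summed to between 13267 and 72641 CPM in the diaphragm libraries. The 8 motor neuron markers, Chat among them, summed to between 1499 and 2342 CPM in spinal cord and to between 0 and 72.7 CPM in diaphragm, and Chat had 0 reads in every Cre-negative library. In these bulk libraries fewer cells of a type and less RNA per cell cannot be told apart.

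The table gives no transcript lengths, so levels are compared between groups and not between genes. RefSeq promoter entries (build GRCm38.p6) matched 33 of the 40 members. The 250 bases before the annotated start are printed for Col1a2 and Col3a1, chains of the abundant fibrillar collagens I and III, and for Col9a2 and Col10a1, which were high in the E15.5 diaphragm libraries that were high in cartilage markers. Capitals mark every match, on either strand, to the CCAAT box (CCAAT), the TATA box (TATAA), the GC box (GGGCGG) and the ACAAAG core bound by SOX factors. All 4 genes lie on the plus strand, in the order chr6:4505368-4505617, chr1:45311288-45311537, chr4:121039316-121039565 and chr10:34389731-34389980.
Col1a2: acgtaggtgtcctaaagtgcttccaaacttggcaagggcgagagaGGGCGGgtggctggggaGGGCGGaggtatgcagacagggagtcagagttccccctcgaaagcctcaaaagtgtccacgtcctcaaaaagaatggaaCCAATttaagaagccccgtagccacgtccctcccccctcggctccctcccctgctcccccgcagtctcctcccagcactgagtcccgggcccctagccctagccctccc
Col3a1: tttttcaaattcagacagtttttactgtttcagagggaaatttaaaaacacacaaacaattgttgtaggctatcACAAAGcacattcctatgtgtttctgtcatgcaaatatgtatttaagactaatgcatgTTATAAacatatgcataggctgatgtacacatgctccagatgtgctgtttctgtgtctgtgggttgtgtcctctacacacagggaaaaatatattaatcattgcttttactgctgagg
Col9a2: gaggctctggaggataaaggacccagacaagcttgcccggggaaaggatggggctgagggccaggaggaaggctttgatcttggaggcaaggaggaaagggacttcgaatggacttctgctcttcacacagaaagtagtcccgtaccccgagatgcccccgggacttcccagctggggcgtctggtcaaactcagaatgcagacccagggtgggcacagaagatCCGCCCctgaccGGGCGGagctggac
Col10a1: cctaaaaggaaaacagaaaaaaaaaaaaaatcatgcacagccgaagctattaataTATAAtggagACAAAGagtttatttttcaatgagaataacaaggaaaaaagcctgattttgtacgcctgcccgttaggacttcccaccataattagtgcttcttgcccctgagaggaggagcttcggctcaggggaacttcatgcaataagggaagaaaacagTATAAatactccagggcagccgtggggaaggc
The Col10a1 stretch lies within the annotated span of Nt5dc1, and the other 3 stretches lie over no annotated gene. In Col3a1 a TTATA match overlaps a TATAA match by all but 1 base. The GC box was present for 20 of 33 members (60.6%), against 32.7% of all 32851 promoter entries of the same length. A member counted when any of its entries held a match, while the share over all promoters counts single entries. Those entries were not limited to the genes of the expression table, so the shares are not like for like. The CCAAT box was present in 12 (36.4%, against 33.8%), the TATA box in 5 (15.2%, against 22.8%) and ACAAAG in 4 (12.1%, against 16.5%). A match is a description of these letters and not of binding.

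Fibrillar chains made up most collagen reads in diaphragm at each age and in spinal cord up to P10 in all but 1 library. In Cre-positive diaphragm the 9 fibrillar chains summed to 1423 ± 83.1, 1549 ± 314, 1413 ± 49.5 and 139 ± 32.0 CPM at the 4 ages in turn (SD, n = 3 at each age). In Cre-negative diaphragm they summed to 2860 ± 27.8, 3630 ± 1674, 2048 ± 432 and 205 ± 46.3 CPM at the same ages, and every Cre-positive library lay below every Cre-negative one at E15.5, P0.5 and P10, but not in the adult. Spinal cord had 389 ± 91.0, 141 ± 12.9, 96.1 ± 61.3 and 4.13 ± 1.18 CPM, below every Cre-positive diaphragm library of the same age. The spread of 1674 CPM in Cre-negative P0.5 diaphragm came with replicate 1 at 5535 CPM, against 2397 and 2957 CPM in the other replicates of that group.

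**Figure D1:**
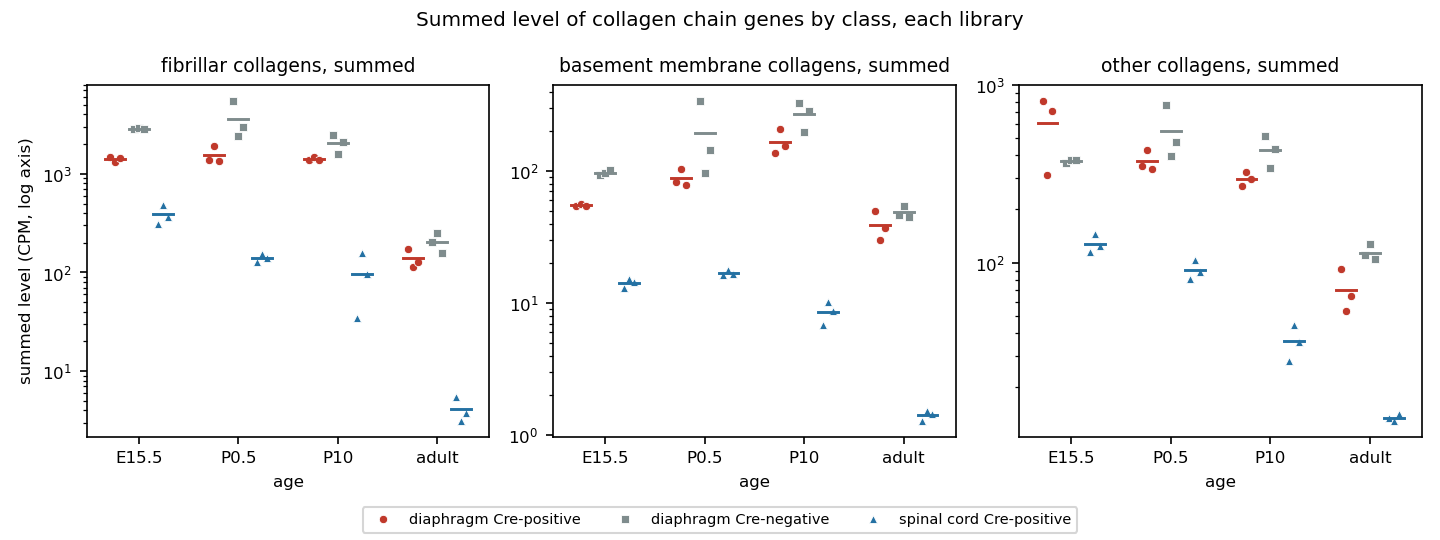
Summed level (CPM, log axis) of the fibrillar, basement membrane and other collagen chains in each library at each age, with points for libraries and lines for group means in Cre-positive diaphragm, Cre-negative diaphragm and spinal cord. In all 3 classes the adult libraries sit lowest within each tissue and genotype, and fibrillar chains average 4.13 CPM in adult spinal cord, against 96.1 CPM at P10.

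The basement membrane share of collagen reads was larger at each later age in diaphragm. The 6 type IV chains made up 2.31 to 3.34% of the collagen total of Cre-positive diaphragm at E15.5, 4.26 to 4.55% at P0.5, 7.61 to 10.5% at P10 and 15.3 to 16.0% in the adult, with no overlap between ages. Their summed level was 55.0 ± 1.34, 88.3 ± 13.8, 167 ± 37.9 and 38.9 ± 9.96 CPM (SD, n = 3 at each age), so the adult share was the highest beside the lowest level. In Cre-negative diaphragm the share was 2.82 to 3.07%, 3.36 to 5.14%, 9.29 to 10.1% and 12.5 to 14.6% at these ages. In E15.5 Cre-positive diaphragm replicates 1 and 3, high in chains that cartilage also makes, had shares of 2.31 and 2.43%. Replicate 2 had 3.34%, and the part of those chains in the collagen total was not tested. In adult spinal cord other chains held 66.5 to 73.4% of collagen reads, fibrillar chains 17.9 to 27.1% and type IV chains 6.42 to 8.67%.

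**Figure D2:**
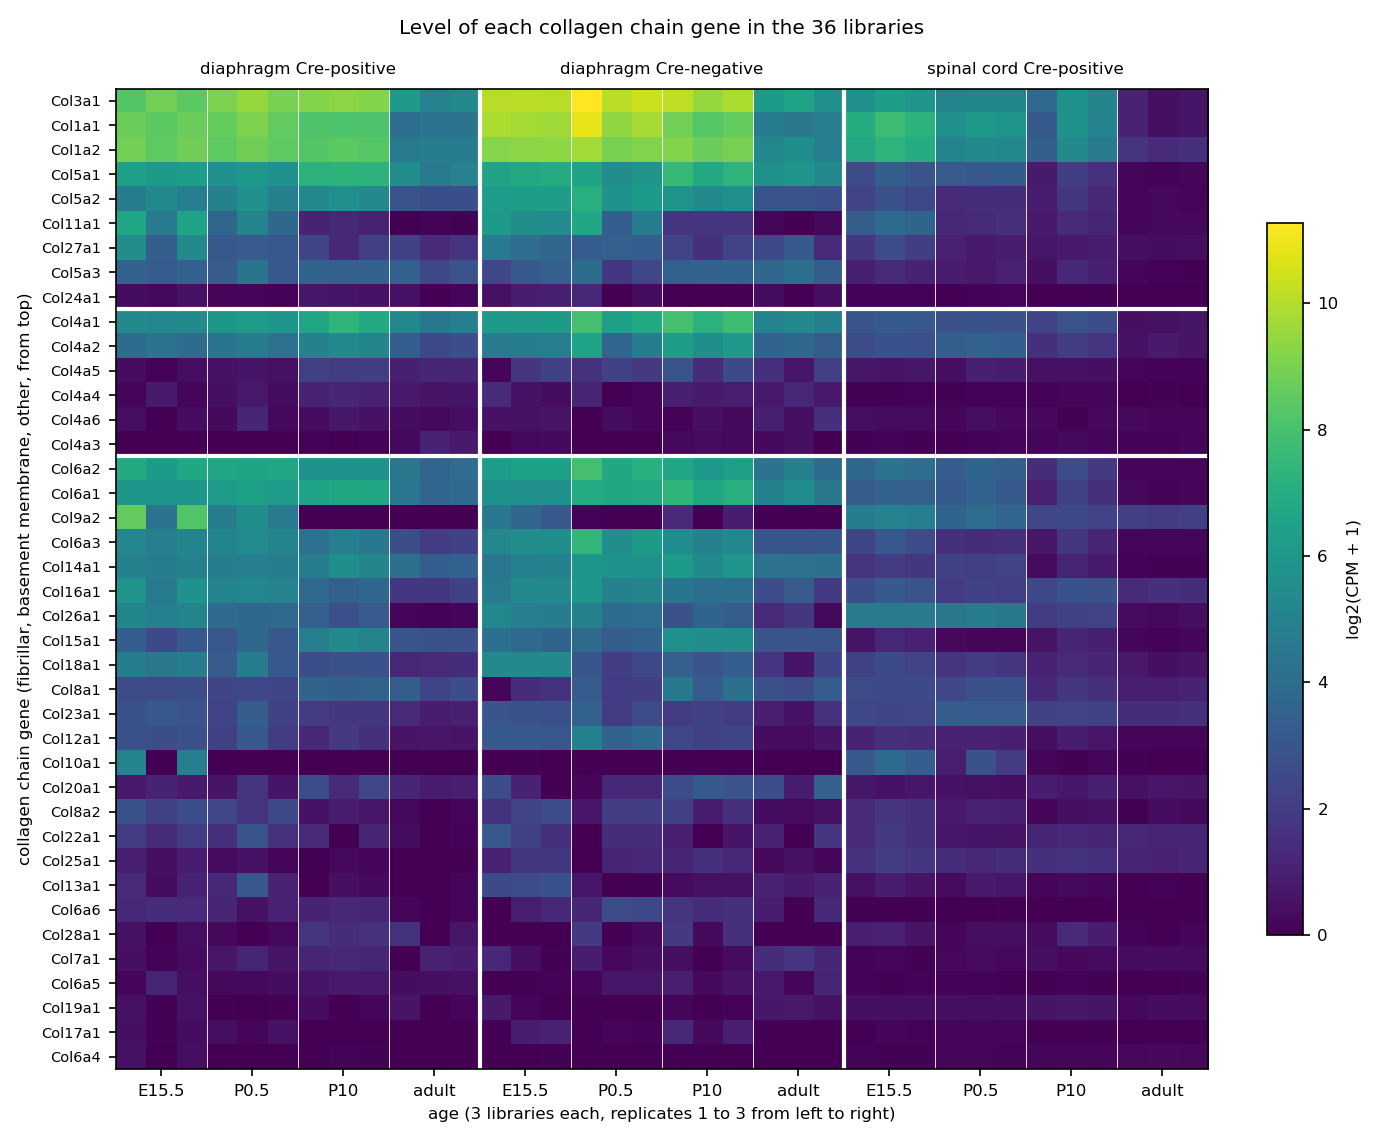
Level of the 40 collagen chain genes, as log2(CPM + 1), in the 36 libraries, with genes grouped as fibrillar, basement membrane and other from top to bottom and columns ordered Cre-positive diaphragm, Cre-negative diaphragm and spinal cord, each by age. Col1a1, Col1a2 and Col3a1 are bright in every diaphragm library before the adult, and most rows are near 0 in adult spinal cord.

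Several fibrillar chains were called lower in Cre-positive than in Cre-negative diaphragm at E15.5 and P0.5. Whether the difference itself changed with age was not tested. Differences are given as log2 differences of mean log2(CPM + 1) ± SE from limma with Benjamini-Hochberg adjustment over all genes tested, with adjusted p under 0.05 as the threshold. Of 32 members at 1 CPM or more in at least 3 diaphragm libraries, 2 were higher and 5 lower in E15.5 Cre-positive diaphragm, where 11% of all genes passed (4.88% higher, 6.11% lower). At P0.5 3 were higher and 10 lower, where 27.7% of all genes passed (12.1% higher, 15.7% lower), and the split was 4 to 5 with RLE size factors. Over all genes RLE size factors gave 2603 higher and 1295 lower at P0.5. Taken over all 36 libraries, these factors were 0.687 to 0.937 in Cre-positive and 0.991 to 1.09 in Cre-negative P0.5 diaphragm. Dividing by them raises Cre-positive levels against Cre-negative ones, so some of the lower calls at P0.5 depend on the normalization. At P10 1 was lower (1.45% of all genes passed, 0.419% higher and 1.03% lower), and it was 0 with any 1 of the 6 P10 libraries left out. This member was Col25a1, which entered the fit through Cre-negative libraries alone. In the adult 1 was lower (12% of all genes passed, 3.06% higher and 8.92% lower), against 3 without Cre-negative replicate 3 and 2 without Cre-negative replicate 2 or Cre-positive replicate 1. Without the intermediate libraries the limma counts were 0, 1, 0 and 0 at these ages, with 6 members under an unadjusted p of 0.05 at E15.5 and 1 each at P10 and in the adult. Over all 13284 genes tested in that fit, 7, 108, 0 and 14 passed at these ages. edgeR on the recovered reads called 5, 10, 0 and 2 members, against 706, 4066, 49 and 1706 of all 13853 genes. With only the groups compared limma called 7, 4, 4 and 0 members, with 1 under an unadjusted p of 0.05 in the adult. The median log2 difference of the members was -0.36, -0.47, -0.48 and -0.47 at the 4 ages, against -0.06, -0.01, -0.13 and -0.12 over all genes tested.

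Most of the members tested were higher in diaphragm than in spinal cord at each age. Of the 40 members 33 passed the filter, 26 with libraries at 1 CPM in both tissues, 6 (Col4a4, Col4a5, Col6a6, Col7a1, Col13a1 and Col20a1) through Cre-positive diaphragm libraries alone and Col25a1 through spinal cord libraries alone. A member that entered through 1 tissue was bound to be higher there in some age, so its call is a description. This also holds for Col10a1 and Col28a1, counted among the 26. Col10a1 reached 1 CPM in only 2 Cre-positive diaphragm libraries and Col28a1 in only 2 spinal cord libraries, short of the filter. Of the 33, 23 were higher and 2 lower in Cre-positive diaphragm than in spinal cord at E15.5, where 73.6% of all genes passed (21.5% higher, 52.1% lower). The counts were 24 higher and 4 lower at P0.5 (75.3% of all genes, 18.4% higher and 56.9% lower), and 26 and 1 with RLE size factors (4385 and 6183 over all genes). They were 25 and 2 at P10 (73% of all genes, 19.9% higher and 53.1% lower) and 19 and 3 in the adult (74.8% of all genes, 19.5% higher and 55.3% lower). Leaving out the intermediate libraries gave 19 and 1, 22 and 2, 22 and 2, and 15 and 1. Of all 14346 genes tested in that fit, 2124, 1985, 2011 and 2102 were higher and 6141, 6870, 6295 and 6863 lower. The median log2 difference of the members was 1.41, 1.38, 1.30 and 0.76, against -0.58, -0.80, -0.63 and -0.72 over all genes, and RLE size factors moved the all-gene medians to -0.11, -0.22, -0.20 and -0.23. The fibroblast list (8 markers, of which Lum and Dcn also stand in the fibril partner list) summed to 225 to 1100 CPM in Cre-positive diaphragm and to 21.5 to 85.9 CPM in spinal cord, where Tcf21 was at 0 from P0.5 on. The part of such cells in these differences was not tested.

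Between ages, the adult step moved the most members. In diaphragm, averaged over both genotypes, 4 of 32 members were higher and 8 lower at P0.5 than at E15.5 (46.6% of all genes passed, 11.4% higher and 35.1% lower). The split of members was 7 to 6 under RLE size factors (2053 to 3957 over all genes) and 10 to 3 in edgeR (2282 to 3225 over all genes). At P10 against P0.5, 8 were higher and 11 lower (34.4% of all genes, 21.4% higher and 13% lower). In the adult against P10, 0 were higher and 24 lower (32% of all genes, 8.01% higher and 24% lower). Without the intermediate libraries these counts were 0 and 2, 2 and 2, and 0 and 14. Of all 13284 genes tested in that fit, 657, 642 and 158 were higher and 1744, 468 and 715 lower. In spinal cord, of 26 members tested, 2 were higher and 16 lower at P0.5 than at E15.5 (72.3% of all genes, 27.9% higher and 44.4% lower). There were 3 higher and 13 lower at P10 than at P0.5 (78.7%, 35.2% higher and 43.5% lower), and 0 higher and 23 lower in the adult than at P10 (67.9%, 23.6% higher and 44.3% lower). Without the intermediate libraries these were 2 and 10, 2 and 12, and 0 and 16. Of all 12994 genes tested there, 2715, 3885 and 2056 were higher and 4642, 4781 and 4282 lower. The comparisons between ages share the libraries of the middle ages, so a high library at P10 or P0.5 enters a pair of steps with opposite sign. A member that reached 1 CPM only before the adult entered the fit through those ages alone, so its lower call in the adult is a description. In spinal cord Col6a1 reached 1 CPM in 9 libraries and averaged 0.122 CPM in the adult. Col15a1 reached it in 3 libraries and averaged 0.107 CPM in the adult.

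Collagens I and III are the main fibre-forming collagens of muscle connective tissue. Col1a1, the collagen I alpha 1 chain, was measured at 433, 343 and 409 CPM in the Cre-positive libraries and at 937, 874 and 820 CPM in the Cre-negative libraries at E15.5. At P0.5 it had 388, 554 and 378 CPM in Cre-positive diaphragm and 1846, 683 and 895 CPM in Cre-negative diaphragm. All Cre-positive libraries lay below all Cre-negative ones at both ages, by log2 differences of -1.15 ± 0.24 (adjusted p = 0.0046) and -1.26 ± 0.24 (adjusted p = 0.00079). Col3a1, the chain of collagen III, had 308, 472 and 343 CPM in Cre-positive and 1070, 1102 and 1085 CPM in Cre-negative diaphragm at E15.5, and its log2 difference was -1.56 ± 0.29 (adjusted p = 0.0015). At P0.5 it had 524, 728 and 517 CPM in Cre-positive and 2482, 1091 and 1336 CPM in Cre-negative diaphragm, again without overlap, and differed by -1.40 ± 0.29 (adjusted p = 0.0013). At P10 the Cre-positive libraries of Col1a1 (284, 274 and 278 CPM) and Col3a1 (589, 634 and 579 CPM) still lay below the Cre-negative ones (466, 311 and 396 CPM; 1163, 710 and 956 CPM), but the differences did not pass (adjusted p = 0.44 and 0.36).

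Col1a2, the partner chain of collagen I, had 357, 453 and 355 CPM in Cre-positive and 851, 501 and 558 CPM in Cre-negative diaphragm at P0.5, a log2 difference of -0.68 ± 0.20 (adjusted p = 0.013) that did not pass without Cre-negative replicate 1 (-0.45, adjusted p = 0.078) or without Cre-positive replicate 1 or 3 (adjusted p = 0.054 and 0.053), nor in edgeR (-0.28, adjusted p = 0.23). At E15.5 it had 470, 357 and 460 CPM in Cre-positive and 596, 645 and 661 CPM in Cre-negative diaphragm, with adjusted p = 0.065. The CPM ratio of Col1a1 to Col1a2 was 0.924 ± 0.0372 in Cre-positive and 1.39 ± 0.168 in Cre-negative diaphragm at E15.5, and 1.13 ± 0.0849 against 1.71 ± 0.414 at P0.5 (SD, n = 3 each), without overlap at either age. At P10 it was 0.872 ± 0.0633 in Cre-positive and 0.787 ± 0.0251 in Cre-negative diaphragm, and in the adult 0.709 ± 0.0362 and 0.708 ± 0.265, with overlap at both ages.

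Col5a2, a chain of collagen V, which seeds collagen I fibrils and sets their width, was lower in Cre-positive diaphragm at both early ages. It had 26.3, 40.9 and 28.4 CPM in Cre-positive and 73.0, 77.2 and 77.0 CPM in Cre-negative diaphragm at E15.5 (log2 difference -1.25 ± 0.28, adjusted p = 0.0071), and 29.8, 51.9 and 29.3 CPM against 136, 54.4 and 69.9 CPM at P0.5 (-1.15 ± 0.28, adjusted p = 0.0048). Neither pair of groups overlapped. Col5a1, the partner chain, had 82.1, 70.8 and 79.9 CPM in Cre-positive and 95.2, 115 and 121 CPM in Cre-negative diaphragm at E15.5 and overlapped at P0.5, with adjusted p = 0.21 and 0.66. Col5a2 lies 24624 bases from Col3a1 on chromosome 1 by the RefSeq spans.

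In the same early comparisons the fibroblast markers of Cre-positive diaphragm summed to 597 to 646 CPM, against 636 to 705 CPM in Cre-negative diaphragm at E15.5, and to 879 to 1100 CPM, against 1056 to 1544 CPM at P0.5. The endothelial list (8 markers) had 81.0 to 102 CPM in Cre-positive and 78.4 to 116 CPM in Cre-negative diaphragm at E15.5, and 103 to 122 CPM against 150 to 326 CPM at P0.5. The hepatocyte list (8 markers) had 9095 to 11301 CPM in Cre-positive and 12870 to 13963 CPM in Cre-negative diaphragm at E15.5, against 23.9 to 48.2 CPM in spinal cord. It had 1591 to 12883 CPM in Cre-positive and 179 to 209 CPM in Cre-negative diaphragm at P0.5, with Cre-positive replicate 2 highest. Cre-negative P0.5 replicate 1 was highest in the fibroblast, endothelial and mesothelial lists and in the summed fibrillar chains. Without it 12 members passed at P0.5 and the log2 differences of Col1a1 and Col3a1 still passed. The part of these cells in the collagen differences was not tested. The remaining calls at E15.5 were Col8a1, a chain of the vessel wall, higher in Cre-positive diaphragm (1.52 ± 0.42, adjusted p = 0.024), and Col15a1, lower (-0.90 ± 0.28, adjusted p = 0.041), which did not pass without Cre-positive replicate 2 or 3 or Cre-negative replicate 1 or 2 (adjusted p = 0.19, 0.09, 0.11 and 0.097), nor in edgeR (adjusted p = 0.067). At P0.5 they were Col4a5 (-1.34 ± 0.45, adjusted p = 0.032) and Col6a6 (-1.16 ± 0.38, adjusted p = 0.026), both lower. The Col4a5 call passed without Cre-negative replicate 1, and did not pass when any other of the 6 libraries was left out (adjusted p = 0.053 to 0.084), nor in edgeR (adjusted p = 0.073).

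The step from P10 to the adult lowered nearly all abundant fibrillar chains in both tissues. In Cre-positive diaphragm Col1a1 had 15.9, 18.9 and 19.0 CPM in the adult, against 284, 274 and 278 CPM at P10, and in Cre-negative diaphragm it had 25.5, 21.3 and 26.9 CPM, against 466, 311 and 396 CPM. All 6 adult libraries lay below all 6 P10 libraries, with a log2 difference of -3.91 ± 0.17 (adjusted p = 1.7e-13). Col1a2 fell by 3.67 ± 0.14 on the log2 scale (adjusted p = 1e-14) and Col3a1 by 3.75 ± 0.20 (adjusted p = 6.9e-12). Col5a2 fell by 2.70 ± 0.20 and Col5a1 by 1.92 ± 0.18 (adjusted p = 1.1e-09 and 3e-08). These 5 also passed without the intermediate libraries. Col5a3, a further collagen V chain, did not pass (log2 difference -0.20 ± 0.32, adjusted p = 0.69), and neither did Col27a1 (0.05 ± 0.35, adjusted p = 0.95).

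Between P0.5 and P10, Col5a1 was the 1 fibrillar chain that rose in diaphragm. Col5a1 had 150, 156 and 158 CPM at P10 and 51.9, 63.3 and 50.9 CPM at P0.5 in Cre-positive diaphragm, and 188, 114 and 159 CPM against 89.3, 46.2 and 57.3 CPM in Cre-negative diaphragm. No P10 library overlapped a P0.5 library, and the log2 difference over both genotypes was 1.37 ± 0.18 (adjusted p = 3.5e-06). Col5a2 did not pass in this step (-0.25 ± 0.20, adjusted p = 0.36). The CPM ratio of Col5a1 to Col5a2 in Cre-positive diaphragm was 2.55 ± 0.727, 1.57 ± 0.301, 3.74 ± 0.511 and 5.64 ± 1.32 at the 4 ages, and in Cre-negative diaphragm 1.45 ± 0.135, 0.774 ± 0.104, 3.12 ± 0.342 and 7.80 ± 1.25 (SD, n = 3 at each age). Col1a1 was lower at P10 than at P0.5 (-1.03 ± 0.17, adjusted p = 8.8e-05), although its libraries overlapped, and its difference was called in Cre-negative diaphragm alone (-1.43 ± 0.24, adjusted p = 0.00013) and not in Cre-positive diaphragm alone (-0.63 ± 0.24, adjusted p = 0.083). The difference between the genotypes in that step was not tested.

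In spinal cord the collagen I chains were lower at P0.5 than at E15.5, and lower in the adult than at P10. Col1a2 had 111, 161 and 127 CPM at E15.5, 31.8, 39.1 and 36.1 CPM at P0.5, 9.63, 39.6 and 24.7 CPM at P10 and 2.28, 1.52 and 1.84 CPM in the adult. P0.5 lay below E15.5 in all libraries (log2 difference -1.86 ± 0.42, adjusted p = 0.0034), P10 overlapped P0.5 (adjusted p = 0.15), and the adult lay below P10 (-2.96 ± 0.42, adjusted p = 0.00024). Col3a1 had 50.2, 79.1 and 57.8 CPM at E15.5, 33.3, 35.5 and 35.6 CPM at P0.5, 13.6, 53.5 and 34.2 CPM at P10 and 1.11, 0.37 and 0.565 CPM in the adult, where its log2 difference from P10 was -4.20 ± 0.43 (adjusted p = 2.9e-05). Col1a1 fell by 3.93 ± 0.58 at the adult step (adjusted p = 0.00034) and by 1.48 ± 0.58 at the P0.5 step (adjusted p = 0.047), and the P0.5 call did not pass without any 1 of the 6 libraries compared (adjusted p = 0.063 to 0.13), nor in edgeR (adjusted p = 0.057). P10 replicate 1 had the lowest and replicate 2 the highest level of each of these 3 chains. The fibroblast list in these P10 libraries summed to 29.3, 84.4 and 57.1 CPM and the skeletal muscle list to 35.3, 253 and 147 CPM in replicates 1, 2 and 3, and the part of such tissue in the collagen levels was not tested.

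Against spinal cord, all 8 tested fibrillar chains were higher in E15.5 and P0.5 Cre-positive diaphragm, and 7 of 8 at P10 and in the adult. Col11a1 was the exception at the later ages, with 1.18, 1.49 and 1.13 CPM in diaphragm and 0.735, 1.51 and 1.22 CPM in spinal cord at P10. Col3a1 had log2 differences of 2.57 ± 0.35, 4.03 ± 0.35, 4.31 ± 0.35 and 4.76 ± 0.35 at the 4 ages (adjusted p = 1.5e-06, 1.9e-09, 7.2e-10 and 1.3e-10). Col5a1 differed by 3.29, 2.65, 5.78 and 4.89 (SE 0.25 each). Col1a1 differed least at E15.5 (1.29 ± 0.40, adjusted p = 0.0072), a call that did not pass without the intermediate libraries (adjusted p = 0.11).

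**Figure D3:**
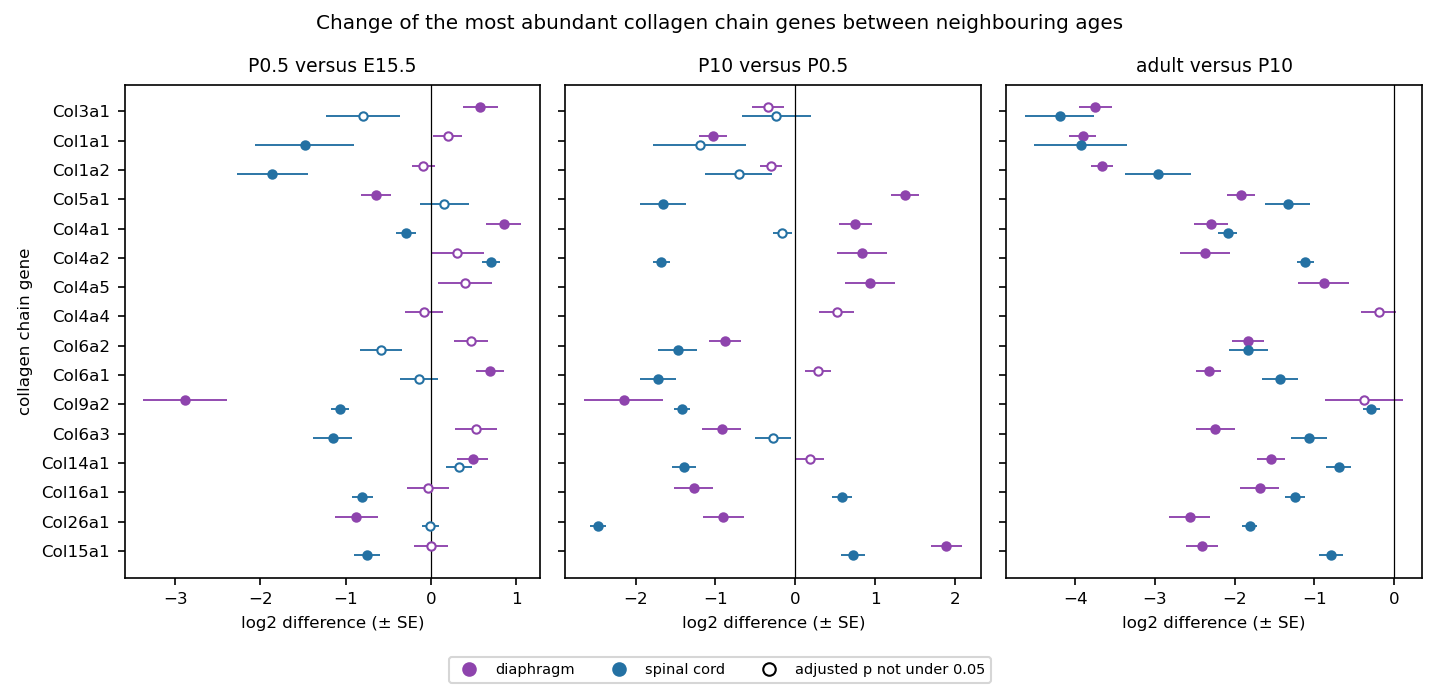
Log2 difference ± SE between neighbouring ages (later minus earlier, on log2(CPM + 1)) for the 16 most abundant members by class, in diaphragm averaged over both genotypes and in spinal cord, with open points where the adjusted p was not under 0.05. At the adult step Col1a1 is at -3.91 in diaphragm and at -3.93 in spinal cord, where it averaged 31.3 CPM at P10 and 0.687 CPM in the adult. This scale understates the change of such low levels, so the 2 values are not equal falls. At the P10 step Col5a1 is at 1.37 in diaphragm and at -1.66 in spinal cord.

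The main basement membrane chains had their highest mean level at P10 in diaphragm. Col4a1, which with Col4a2 forms the collagen IV network of nearly all basement membranes, had 38.7, 37.1 and 38.5 CPM at E15.5, 62.1, 75.1 and 59.5 CPM at P0.5, 102, 164 and 116 CPM at P10 and 38.1, 22.5 and 28.4 CPM in the adult in Cre-positive diaphragm. In Cre-negative diaphragm it had 67.9, 67.3 and 69.4, then 246, 81.3 and 114, then 245, 148 and 212, and then 32.3, 38.5 and 29.9 CPM. Within Cre-positive diaphragm no library of P10 overlapped another age. Over both genotypes Col4a1 was higher at P0.5 than at E15.5 (0.85 ± 0.21, adjusted p = 0.002), higher at P10 than at P0.5 (0.75 ± 0.21, adjusted p = 0.0076) and lower in the adult than at P10 (-2.30 ± 0.21, adjusted p = 2.6e-08), and only the adult step passed without the intermediate libraries. Col4a2 was higher at P10 than at P0.5 (0.84 ± 0.31, adjusted p = 0.042), which did not pass in 9 of the fits that left out 1 library (adjusted p = 0.052 to 0.13) nor in edgeR (adjusted p = 0.12), and lower in the adult (-2.37 ± 0.31, adjusted p = 5.2e-06).

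Col4a1 was lower in Cre-positive than in Cre-negative diaphragm at P0.5 (log2 difference -1.0 ± 0.29, adjusted p = 0.015) with no overlap, but the call did not pass without Cre-negative replicate 1 (-0.56, adjusted p = 0.093) or Cre-positive replicate 3 (adjusted p = 0.052). Col4a2 had 19.1, 26.4 and 18.0 CPM in Cre-positive and 92.9, 11.9 and 26.3 CPM in Cre-negative diaphragm at P0.5, overlapped, and did not pass (adjusted p = 0.37). The annotated spans of Col4a1 and Col4a2 overlap by 85 bases on chromosome 8 and nothing states that counting used strand, so reads there cannot be assigned to one of them with certainty. The endothelial and mural lists (8 markers each) were also highest at P10 in Cre-positive diaphragm, at 244 to 257 and 330 to 400 CPM, against 103 to 122 and 114 to 142 CPM at P0.5 and 88.8 to 139 and 130 to 210 CPM in the adult, and their part in the collagen IV levels was not tested.

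In spinal cord the pair moved apart. Col4a2 had 9.72, 10.4 and 9.47 CPM at P0.5 and 5.15, 6.14 and 5.78 CPM at E15.5, without overlap (0.70 ± 0.11, adjusted p = 2.7e-05), while Col4a1 had 5.95, 6.08 and 5.86 CPM at P0.5 and 6.87, 8.26 and 7.49 CPM at E15.5 (-0.29 ± 0.12, adjusted p = 0.038). The Col4a1 call did not pass in 5 of the 6 fits that left out 1 of these libraries, nor in edgeR (adjusted p = 0.29). At P10 Col4a2 had 1.96, 2.95 and 2.34 CPM (-1.68 ± 0.11 against P0.5, adjusted p = 8.7e-10) and Col4a1 3.96, 6.4 and 5.52 CPM (adjusted p = 0.22). The CPM ratio of Col4a1 to Col4a2 was 1.32 ± 0.0263, 0.605 ± 0.0172, 2.18 ± 0.169 and 0.841 ± 0.260 at the 4 ages in spinal cord, against 2.38 ± 0.337, 3.13 ± 0.253, 3.63 ± 0.413 and 4.77 ± 0.582 in Cre-positive diaphragm (SD, n = 3 at each age). Against spinal cord, Col4a1 was higher in Cre-positive diaphragm by 2.2, 3.25, 4.34 and 4.36 on the log2 scale (SE 0.19 each, adjusted p at most 2e-09) and Col4a2 by 1.36, 1.01, 3.39 and 2.19 (SE 0.20 each).

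The minor type IV chains, which replace the main pair in the glomerulus and at the synaptic basement membrane of muscle, were rare. Col4a5 had 0.0945 to 0.558 CPM in Cre-positive diaphragm up to P0.5, 3.45, 2.86 and 3.19 CPM at P10 and 1.01, 1.33 and 1.25 CPM in the adult, against 0.377 to 0.472 CPM in spinal cord at P10 and 0.0712 to 0.133 CPM in the adult. Its level in Cre-positive diaphragm exceeded that in spinal cord at P10 (1.55 ± 0.13, adjusted p = 7e-10) and in the adult (1.0 ± 0.13, adjusted p = 4.1e-07), and was below it at E15.5 (-0.39 ± 0.13, adjusted p = 0.0092), where the call did not pass without the intermediate libraries (adjusted p = 0.13) or in edgeR (adjusted p = 0.18). Col4a4 had at most 1.62 CPM in any library and was higher in Cre-positive diaphragm than in spinal cord at P0.5, P10 and adult (adjusted p = 0.0099, 5.4e-06 and 0.00041), although the P0.5 call did not pass without Cre-positive replicate 2 (adjusted p = 0.056). Both Col4a5 and Col4a4 entered this comparison only through diaphragm libraries. Col4a3 (at most 1.13 CPM) and Col4a6 (at most 1.88 CPM) did not pass the filter in diaphragm. Col4a3 and Col4a4 overlap by 114 bases and Col4a5 and Col4a6 lie 1274 bases apart.

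Collagen VI chains, which form the microfibrils between basement membrane and fibrils in muscle, fell in the adult. Col6a1 had 62.6, 62.3 and 61.9 CPM at E15.5, 74.3, 84.0 and 71.9 CPM at P0.5, 88.8, 107 and 97.5 CPM at P10 and 20.5, 12 and 13.3 CPM in the adult in Cre-positive diaphragm. In adult Cre-negative diaphragm it had 30.5, 44.2 and 22.2 CPM, above every adult Cre-positive library. It was the 1 member called in the adult Cre comparison, by -1.01 ± 0.23 (adjusted p = 0.0055). In the adult step in diaphragm the log2 difference was -2.33 ± 0.16 for Col6a1, -2.24 ± 0.24 for Col6a3 and -1.83 ± 0.20 for Col6a2 (adjusted p = 4.1e-10, 3.8e-07 and 5.6e-07), each also without the intermediate libraries. Col6a3 was lower in Cre-positive diaphragm at P0.5 (-1.16 ± 0.34, adjusted p = 0.016), a call that did not pass without Cre-negative replicate 1, which had 176 CPM against 45.0 and 69.3 CPM in replicates 2 and 3 (-0.62, adjusted p = 0.094), nor without Cre-positive replicate 1 or 3 (adjusted p = 0.055 and 0.053).

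In spinal cord Col6a1 had 9.12, 10.8 and 10.1 CPM at E15.5, 8.24, 10.7 and 8.14 CPM at P0.5, 1.04, 3.57 and 1.95 CPM at P10 and 0.178, 0.0712 and 0.116 CPM in the adult. It fell at P10 against P0.5 (-1.72 ± 0.23, adjusted p = 2.4e-05), and again in the adult (-1.43 ± 0.23, adjusted p = 0.00017). The P10 step differed between the tissues by 2.07 ± 0.31 (adjusted p = 1.8e-05). Col6a6 had 1.36 to 1.82 CPM in E15.5 Cre-positive diaphragm and at most 0.0623 CPM in any spinal cord library, and Col6a4 (at most 0.427 CPM) and Col6a5 (at most 1.28 CPM) were too low to test.

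Fibril-associated chains, which sit on the surface of collagen I fibrils, included 2 chains lower in Cre-positive diaphragm at P0.5. Col14a1 had 26.4, 27.0 and 26.8 CPM in Cre-positive and 61.7, 52.0 and 53.9 CPM in Cre-negative diaphragm at P0.5 (-1.03 ± 0.26, adjusted p = 0.005), without overlap. Col12a1, a collagen of tendon and fascia, had 3.38, 7.8 and 2.9 CPM in Cre-positive and 29.7, 11.1 and 14.4 CPM in Cre-negative diaphragm at P0.5 (-1.75 ± 0.35, adjusted p = 0.00091), also without overlap. Both passed with each library left out in turn, but neither passed without the intermediate libraries. Fewer members were called lower at P0.5 with RLE size factors. Col16a1 did not pass in any Cre comparison, and was lower at P10 than at P0.5 in diaphragm (-1.27 ± 0.25, adjusted p = 0.0004) but higher in spinal cord (0.59 ± 0.13, adjusted p = 0.00055), where it had 4.41, 6.24 and 5.94 CPM at P10 and 2.9, 3.67 and 3.43 CPM at P0.5. That difference between the tissues was called at -1.99 ± 0.33 (adjusted p = 5.8e-05), also without the intermediate libraries.

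The multiplexins, collagens of the outer face of basement membranes, split. Col15a1, which stabilises muscle fibres and capillaries in mice, had 27.5, 39.8 and 32.1 CPM at P10 and 7.24, 12.5 and 7.3 CPM at P0.5 in Cre-positive diaphragm, and 49.3, 44.7 and 46.5 CPM against 13.9, 8.91 and 10.8 CPM in Cre-negative diaphragm. No P10 library overlapped P0.5, and the log2 difference of 1.89 ± 0.20 (adjusted p = 2.5e-07) was followed by -2.41 ± 0.20 in the adult (adjusted p = 4.9e-09), both also without the intermediate libraries. Col18a1, the source of endostatin, had 7.01, 3.19 and 4.43 CPM at P0.5 in Cre-negative diaphragm, against 39.1, 39.2 and 38.5 CPM at E15.5, when the hepatocyte list was also high. Its P0.5 level in Cre-positive diaphragm was 8.44, 25.7 and 7.56 CPM, higher by 1.19 ± 0.41 (adjusted p = 0.035), and the call did not pass without Cre-positive replicate 2 (0.67, adjusted p = 0.21) or Cre-negative replicate 2 or 3 (adjusted p = 0.11 and 0.082). Cre-positive P0.5 replicate 2 was the library with 12883 CPM of hepatocyte markers, a cell type that makes collagen XVIII, against 2102 and 1591 CPM in replicates 1 and 3, and the part of liver in that level was not tested.

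The chains that cartilage also makes had their own pattern. Col9a2, a chain of the collagen IX that coats cartilage fibrils, had 377, 18.7 and 299 CPM in Cre-positive diaphragm at E15.5, against 21.9, 12.1 and 7.86 CPM in Cre-negative diaphragm. The groups overlapped through Cre-positive replicate 2, and the log2 difference was 3.24 ± 0.70 (adjusted p = 0.005). Col10a1, the collagen of hypertrophic cartilage, had 32.5, 0 and 28.0 CPM in the same Cre-positive libraries and at most 0.0374 CPM in Cre-negative ones, and did not pass the filter in diaphragm. Col11a1, a fibrillar chain that seeds cartilage fibrils, had 102, 24.8 and 89.9 CPM, and Col27a1, a fibrillar chain of growth cartilage, had 45.9, 9.79 and 40.4 CPM. Both were lowest in replicate 2 and overlapped Cre-negative diaphragm, at 64.8, 46.3 and 42.1 CPM and at 12.2 to 24.9 CPM, with adjusted p = 0.82 and 0.46.

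The 12 cartilage markers, among them the 4 collagens excluded by the rule, summed to 4124, 350 and 3427 CPM in Cre-positive replicates 1, 2 and 3 at E15.5 and to 247, 74.2 and 22.0 CPM in Cre-negative ones, where Matn1 and Matn3 were at 0. The 8 bone markers summed to 370, 8.50 and 300 CPM in Cre-positive and to 35.8 to 42.8 CPM in Cre-negative diaphragm. Col9a2 thus stood high in the same libraries as the cartilage list, and its part in these levels was not tested. At P0.5 the cartilage list had 223 to 533 CPM in Cre-positive and 2.66 to 6.17 CPM in Cre-negative diaphragm, and Col9a2 had 26.5, 47.5 and 24 CPM against 0.088, 0 and 0.026 CPM, without overlap. Its log2 difference of 4.96 ± 0.70 (adjusted p = 4.7e-05) was the 1 Cre call that also passed without the intermediate libraries (5.06, adjusted p = 0.03).

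**Figure D4:**
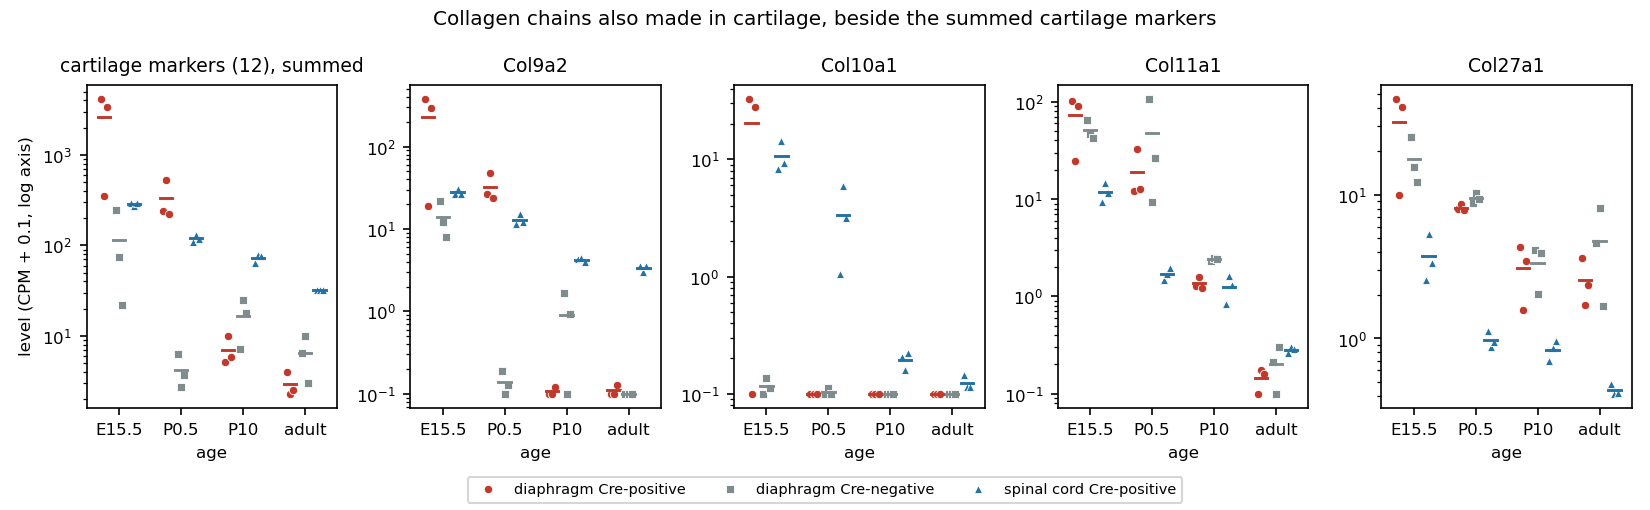
Summed level of the 12 cartilage markers and levels of Col9a2, Col10a1, Col11a1 and Col27a1 in each library by age (CPM + 0.1, log axis), for Cre-positive diaphragm, Cre-negative diaphragm and spinal cord. At E15.5 Cre-positive replicate 2 lies below replicates 1 and 3 for the marker sum (350 against 4124 and 3427 CPM) and for each of the 4 genes.

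Spinal cord had Col9a2 at P10 and in the adult, when Cre-positive diaphragm had almost none. It had 26.3, 30.9 and 26.9 CPM at E15.5, 11.4, 15.3 and 12 CPM at P0.5, 4.27, 4.38 and 3.85 CPM at P10 and 3.42, 2.88 and 3.46 CPM in the adult. Cre-positive diaphragm had at most 0.0294 CPM at P10 and in the adult, and the log2 difference was -2.36 ± 0.65 at P10 and -2.07 ± 0.65 in the adult (adjusted p = 0.003 and 0.0074), although the adult call did not pass without the intermediate libraries (adjusted p = 0.078). The cartilage list in spinal cord summed to 275 to 292, 109 to 131, 63.9 to 78.0 and 32.0 to 32.3 CPM at the 4 ages, with Matn3 at 0 in the adult. Col11a1 fell in spinal cord at P0.5 (-2.27 ± 0.15, adjusted p = 4.8e-09) and in diaphragm at P10 (-3.12 ± 0.42, adjusted p = 6.6e-06), each also without the intermediate libraries.

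Of the chains known from the neuromuscular and muscle-tendon junction, only Col25a1 was higher in spinal cord at all 4 ages. Col25a1, a transmembrane collagen that developing mouse muscle needs for motor innervation, had 0.911, 0.388 and 0.844 CPM in Cre-positive diaphragm and 2.05, 3.19 and 2.48 CPM in spinal cord at E15.5. In the adult it had 0, 0.0187 and 0.0294 CPM in Cre-positive diaphragm and 1.26, 1.07 and 1.29 CPM in spinal cord. All Cre-positive diaphragm libraries lay below all spinal cord libraries of the same age, by -1.06, -1.03, -1.43 and -1.12 on the log2 scale (SE 0.14 each, adjusted p = 6.6e-07, 9e-07, 8.1e-09 and 2.7e-07), and the 4 calls also passed without the intermediate libraries, but the E15.5 call did not pass in edgeR (-1.17, adjusted p = 0.063). Col25a1 reached 1 CPM in 0 of 12 Cre-positive diaphragm and 12 of 12 spinal cord libraries, so it passed the filter only through the tissue where it was higher. At P10 Cre-positive diaphragm had 0.061, 0.191 and 0.113 CPM, against 1.24, 1.97 and 1.37 CPM in Cre-negative diaphragm, without overlap. That difference (-1.16 ± 0.29, adjusted p = 0.046) did not pass when any 1 of the 6 libraries was left out (adjusted p = 0.096 to 0.18), nor in edgeR (adjusted p = 0.22). Col25a1 entered the diaphragm fit through Cre-negative libraries alone, the group where it was higher, so this call is a description.

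**Figure D5:**
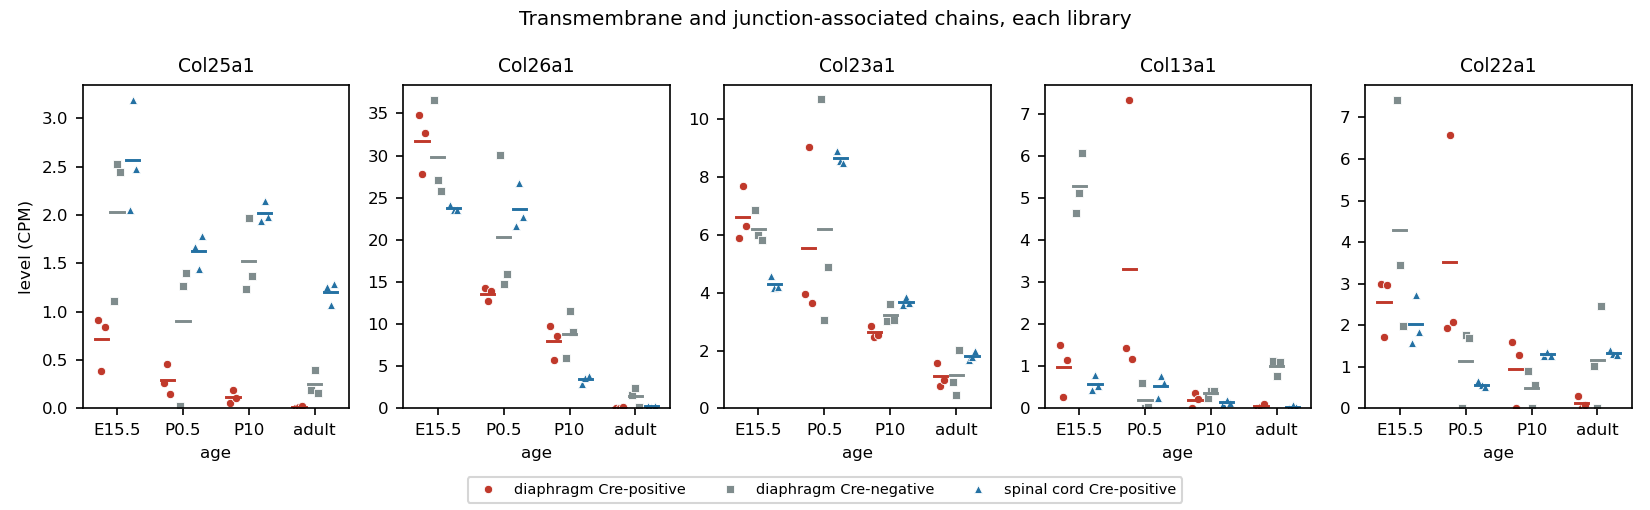
Level of Col25a1, Col26a1, Col23a1, Col13a1 and Col22a1 in each library by age (CPM, linear axis from 0), for Cre-positive diaphragm, Cre-negative diaphragm and spinal cord. Col25a1 lies at 1.07 to 3.19 CPM in every spinal cord library and under 1 CPM in every Cre-positive diaphragm library.

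Col13a1, a transmembrane collagen of the muscle membrane at the neuromuscular junction, had opposite signs at the early ages in limma. It had 1.51, 0.283 and 1.14 CPM in Cre-positive and 4.65, 5.12 and 6.07 CPM in Cre-negative diaphragm at E15.5 (-1.72 ± 0.38, adjusted p = 0.0058), and 1.44, 7.33 and 1.18 CPM against 0.601, 0 and 0.039 CPM at P0.5 (1.58 ± 0.38, adjusted p = 0.004). Neither pair overlapped, but the E15.5 call did not pass in edgeR (-2.30, adjusted p = 0.4). The highest P0.5 value came from Cre-positive replicate 2, the library high in hepatocyte markers. From P10 on it had at most 0.362 CPM in Cre-positive diaphragm and at most 0.207 CPM in spinal cord, and the difference did not pass (adjusted p = 0.9 and 0.99). Col22a1, a chain of the muscle-tendon junction, had 3.0, 1.71 and 2.98 CPM at E15.5 in Cre-positive diaphragm and 0.308, 0 and 0.0784 CPM in the adult, where spinal cord had 1.41, 1.32 and 1.29 CPM. The adult difference of -1.06 ± 0.32 (adjusted p = 0.0056) did not pass without the intermediate libraries (adjusted p = 0.073).

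At P0.5, Col26a1 and Col23a1 were also called lower in Cre-positive diaphragm than in spinal cord, as was Col10a1. Col10a1 reached 1 CPM in 5 spinal cord and 2 Cre-positive diaphragm libraries. It would not have met the filter by its diaphragm libraries, so its call is a description. With RLE size factors most of the lower calls between the tissues at that age were lost. Col23a1 averaged 5.55 CPM in Cre-positive diaphragm and 8.66 CPM in spinal cord at P0.5. Col26a1, a little-studied secreted chain, had 14.3, 12.7 and 13.9 CPM in Cre-positive diaphragm and 21.6, 26.8 and 22.7 CPM in spinal cord at that age (-0.75 ± 0.15, adjusted p = 0.00019), but the log2 difference was 0.02 with RLE size factors and 0.30 in edgeR. Within spinal cord it fell by 2.47 ± 0.10 at P10 and by 1.81 ± 0.10 in the adult (adjusted p = 4.6e-12 and 4.8e-10), and in diaphragm by 2.57 ± 0.26 in the adult (adjusted p = 1.1e-07). Col23a1, a transmembrane collagen, rose in spinal cord at P0.5 (8.92, 8.57 and 8.5 CPM, against 4.59, 4.16 and 4.22 CPM at E15.5) and differed there by 0.86 ± 0.08 (adjusted p = 6.8e-08). Col19a1, made by neurons that form inhibitory synapses in mice, had at most 0.757 CPM in any library, and in spinal cord 0.192 to 0.679 CPM, and was not tested. Col17a1 and Col24a1 had at most 1.39 and 1.41 CPM and were not tested either.

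The age steps themselves differed between the tissues for some members. For the P10 step, 10 of 33 members had a higher and 5 a lower step in Cre-positive diaphragm than in spinal cord (46.5% of all genes passed, 28.3% higher and 18.1% lower). The counts were 10 and 9 with RLE size factors and 7 and 3 without the intermediate libraries. Over all genes these fits gave 3613 higher and 3282 lower, and 1747 higher and 1117 lower. Col5a1 (3.13 ± 0.36, adjusted p = 8.1e-07), Col4a2 (2.37 ± 0.28, adjusted p = 1.2e-06) and Col8a1 (2.27 ± 0.28, adjusted p = 1.7e-06) led the members with a higher step. For the P0.5 step 7 were higher and 2 lower (38.7% of all genes, 11.8% higher and 26.8% lower), with Col1a2 at 1.72 ± 0.42 (adjusted p = 0.003), and for the adult step 0 were higher and 8 lower (34.3% of all genes, 14.3% higher and 20.1% lower). Without the intermediate libraries 0 passed in either of these steps in limma, with 8 and 5 members under an unadjusted p of 0.05. Over all 14346 genes of that fit 1463 and 945 passed. For the adult step edgeR called 8 higher and 1 lower (2207 and 2455 over all genes), so the direction of that count depends on the method. The log2(CPM + 1) scale of limma understates the change of low levels. Col6a1, called lower there, averaged 2.19 CPM at P10 and 0.122 CPM in the adult in spinal cord (18.0 times lower). In Cre-positive diaphragm it averaged 97.8 and 15.3 CPM.

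Many enzymes and partners of collagen also fell in diaphragm at the adult step. Of 12 processing and crosslinking genes tested in diaphragm, 2 were higher and 6 lower in the adult than at P10. Lox, which crosslinks collagen, had 0.969 CPM in the adult and 17.7 CPM at P10 on average over the 6 diaphragm libraries of each age (-3.30 ± 0.26, adjusted p = 2.8e-09), and Pcolce, which speeds the trimming of procollagen, fell by 2.46 ± 0.12 (adjusted p = 4.3e-13). Of 22 biosynthesis genes 1 was higher and 13 lower, with Fkbp10, a collagen chaperone of the endoplasmic reticulum, at -2.45 ± 0.20 (adjusted p = 4.6e-09). Of 15 fibril partners 0 were higher and 12 lower, with Postn (periostin) at -5.00 ± 0.25 (adjusted p = 1.2e-12). Of 11 basement membrane partners 1 was higher and 6 lower, with Nid1 (nidogen) at -2.05 ± 0.18 (adjusted p = 1.9e-08). In that step 8.01% of all genes were higher and 24% lower. With the intermediate libraries left out, 1 processing gene was higher and 4 lower, and 7 biosynthesis genes, 11 fibril partners and 4 basement membrane partners were lower with 0 higher. Of all 13284 genes of that fit 158 were higher and 715 lower. The 5 genes named here passed in that fit and in edgeR.

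At P0.5, where 15.7% of all genes were lower in Cre-positive than in Cre-negative diaphragm, the lists had members called lower. These were 5 of 22 biosynthesis genes, 4 of 12 processing genes, 7 of 11 basement membrane partners and 7 of 15 fibril partners, with 0 higher in each list. In limma 0 genes of these 4 lists passed without the intermediate libraries, with 4, 2, 3 and 5 under an unadjusted p of 0.05. Of all 13284 genes of that fit 89 were higher and 19 lower. With only the groups compared 2, 1, 2 and 3 were lower. In edgeR the split of the biosynthesis genes was 3 higher and 3 lower, and that of the processing genes 1 and 2, while 4 basement membrane and 5 fibril partners were lower with 0 higher. With RLE size factors 3 biosynthesis genes were higher and 4 lower, 2 processing genes and 4 basement membrane partners were lower, and 1 fibril partner was higher and 4 lower. Lox averaged 33.7 ± 28.6 CPM in Cre-positive and 121 ± 40.1 CPM in Cre-negative diaphragm (SD, n = 3 each; -2.07 ± 0.37, adjusted p = 0.00037). Lamc1, the shared laminin gamma 1 chain, averaged 8.90 ± 0.335 CPM in Cre-positive and 30.0 ± 12.3 CPM in Cre-negative diaphragm (-1.58 ± 0.34, adjusted p = 0.002), and Aspn (asporin) 125 ± 51.3 and 405 ± 12.2 CPM in the same groups (-1.76 ± 0.27, adjusted p = 9.7e-05). These 3 did not pass without the intermediate libraries (adjusted p = 0.13 for Lox, 0.18 for Lamc1 and 0.085 for Aspn), and they passed in edgeR. Of the receptors, 2 of 9 were lower at P0.5, among them Itgb1, the shared beta 1 integrin (-0.98 ± 0.23, adjusted p = 0.0035), which did not pass without the intermediate libraries or in edgeR (adjusted p = 0.34 and 0.056). At E15.5, where 4.88% of all genes were higher and 6.11% lower, the biosynthesis genes had 2 higher and 1 lower, the processing genes 2 and 0, the fibril partners 3 and 0, the degradation genes 2 and 0, and the basement membrane partners and receptors 0 in either direction. In limma 0 passed in each list at that age without the intermediate libraries, with 1 biosynthesis gene, 2 processing genes and 1 degradation gene under an unadjusted p of 0.05. Of all 13284 genes of that fit 7 passed.

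Against spinal cord, fibril partners were higher in Cre-positive diaphragm in 14, 14, 15 and 13 of 15 genes at the 4 ages, and lower in 0, 0, 0 and 1. Over all genes 21.5, 18.4, 19.9 and 19.5% were higher and 52.1, 56.9, 53.1 and 55.3% lower at these ages. With the intermediate libraries left out, 13, 14, 15 and 13 fibril partners were higher and 0 lower at each age. In that fit 2124, 1985, 2011 and 2102 of all 14346 genes were higher and 6141, 6870, 6295 and 6863 lower. Basement membrane partners were higher in 10, 9, 9 and 9 of 12 and lower in 2, 2, 0 and 0, the same counts as without the intermediate libraries. Of 10 degradation genes, 3, 4, 3 and 4 were higher and 3, 4, 3 and 2 lower, and without the intermediate libraries 3, 2, 3 and 4 were higher and 3, 4, 3 and 2 lower. The inhibitor Timp4 was at -3.63 ± 0.22 and Mmp14, a membrane-bound collagenase, at 2.59 ± 0.20 at E15.5 (adjusted p = 1.1e-11 and 3.2e-10). The gelatinase Mmp9 had 0 reads in the P10 Cre-positive libraries, against a mean of 18.5 CPM in P10 spinal cord. Of 8 receptors 4, 3, 3 and 4 were higher and 3, 2, 2 and 3 lower, and without the intermediate libraries 2, 2, 3 and 4 were higher and 3, 2, 1 and 2 lower. In edgeR 4, 5, 5 and 4 receptors were higher and 1, 2, 2 and 1 lower. Ddr1, a collagen-sensing tyrosine kinase, was lower in diaphragm at P10 (-1.87 ± 0.21, adjusted p = 1.1e-07).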

How the data were processed

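The authors deposited 1 table of CPM, reads of a gene per 1000000 reads of the library, for 18845 genes in 36 libraries. Bowtie2 2.2.5, RSEM 1.2.12 and build mm10 are named in the submitters' processing notes, and whether counting used strand is not given in the sources used here. The low CPM values of the deposited table were whole multiples of 1 read in every library (100% of values within 0.1 of a whole read), so depth and reads were recovered.

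Groups came from the labels' genotype, tissue and age. A gene entered a fit where 3 or more of its libraries reached 1 CPM, and was tested with limma 3.58.1 (trend and robust) on log2(CPM + 1), with Benjamini-Hochberg adjustment over all genes tested. The log2(value + pseudocount) scale understates the change of low genes. Cre comparisons and diaphragm age steps came from 24 diaphragm libraries (13853 genes), the comparison of tissues and of their age steps from 24 Cre-positive libraries (14831 genes), and spinal cord age steps from 12 libraries (13373 genes). Alternatives were a pseudocount of 0.1, no filter, RLE size factors (DESeq2 1.42.0), the replicate number as a block, only the groups compared, no intermediate libraries, each library left out, and the edgeR 4.0.16 quasi-likelihood test on recovered reads. The fits were tested on simulated data. Depth was 63.7 to 107.0 M reads.

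The members and lists were chosen with earlier results of these data known. Genes named were the 4 fibrillar, 4 basement membrane and 8 other members of highest mean level, up to 4 called members per direction and comparison at 10 CPM or more, the junction-related chains, and per pathway list the 3 most abundant and up to 2 called genes. Other members are named to account for counts.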

Additional observations from a re-analysis of the deposited data

Results flagged for a closer look

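Members whose age step differed between Cre-positive diaphragm and spinal cord, by a limma test of the difference itself with adjusted p under 0.05, numbered 9 at P0.5 against E15.5, 15 at P10 against P0.5 and 8 in the adult against P10. These were 27.3, 45.5 and 24.2% of the 33 members tested, against 38.7, 46.5 and 34.3% of all genes. Members were thus not called more often than genes at large. A positive value means a higher step in Cre-positive diaphragm on the log2(CPM + 1) scale, which understates the change of low genes. At the P0.5 step the log2 difference was 1.72 for Col1a2, 1.62 for Col1a1, 1.46 for Col3a1, 1.31 for Col6a3 and -1.15 for Col26a1. At the P10 step it was 3.13 for Col5a1, 2.37 for Col4a2, 2.27 for Col8a1 and 2.07 for Col6a1, and -3.58 for Col9a2, -2.71 for Col11a1 and -1.99 for Col16a1. At the adult step it was -1.53 for Col5a2, -1.42 for Col15a1, -1.20 for Col6a1 and -1.20 for Col4a2. In edgeR the adult values of Col5a2, Col15a1 and Col6a1 had the other sign (0.81, 0.94 and 1.66). That of Col4a2 was -0.21 (adjusted p = 0.67), and the P0.5 value of Col26a1 was -0.81 (adjusted p = 0.071), so neither call passed in edgeR. The P0.5 call of Col1a1 did not pass when 1 of 5 libraries was left out (adjusted p = 0.052 to 0.077), and that of Col3a1 did not pass without Cre-positive E15.5 replicate 1 or spinal cord E15.5 replicate 2 (adjusted p = 0.056 and 0.066). The reasons for these differences were not tested.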

How the results depend on the processing

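Without the intermediate libraries the number of members called was 0, 1, 0 and 0 in the Cre comparisons from E15.5 to adult, 2, 4 and 14 in the diaphragm steps, and 0 in the P0.5 and adult step differences between tissues. Under an unadjusted p of 0.05 these 0 counts had 6, 1 and 1 members in the Cre comparisons at E15.5, P10 and adult, and 8 and 5 in the step differences. Over all genes of that fit the counts were 7, 108, 0 and 14, then 2401, 1110 and 873, and then 1463 and 945. With only the groups compared the number of members called was 4, 4 and 0 in the Cre comparisons at P0.5, P10 and adult (1 of 20 members tested under an unadjusted p of 0.05 in the adult) and 14 at the adult step of spinal cord. A pseudocount of 0.1 gave 0 at P10 and 3 in the adult Cre comparison, no filter gave 2 in the adult, and edgeR gave 0 at P10 and 2 in the adult, with 9 and 3 members under an unadjusted p of 0.05 at P10 under the pseudocount and edgeR. Leaving out 1 library gave 5 to 7, 9 to 13, 0 to 0 and 1 to 3 in the Cre comparisons, 23 to 25, 25 to 29, 24 to 27 and 20 to 23 between tissues, 8 to 13, 15 to 21 and 21 to 23 in the diaphragm steps, 14 to 18, 16 to 21 and 20 to 22 in the spinal cord steps, and 6 to 12, 14 to 17 and 7 to 11 in the step differences. The adult Cre count was 3 without Cre-negative replicate 3 and 2 without Cre-negative replicate 2 or Cre-positive replicate 1, the P0.5 diaphragm step gave 8 without Cre-positive E15.5 replicate 1, and the P0.5 step difference gave 6 without spinal cord E15.5 replicate 2.

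Same-numbered libraries did not deviate together (198 correlations between -0.0959 and 0.163, 5 of them over 0.1), so replicate numbers were not taken as pairs. With the replicate number as a block the counts were 6, 13, 1 and 1 in the Cre comparisons, 25, 28, 27 and 22 between tissues, 12, 18 and 24 in the diaphragm steps, 19, 17 and 22 in spinal cord, and 9, 15 and 8 in the step differences.

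The direction turned for Col26a1 between tissues at P0.5 (0.02 with RLE size factors, 0.30 in edgeR), for Col15a1 in the P10 step difference (-0.022 with a pseudocount of 0.1, -0.88 in edgeR), and in the adult step difference for Col15a1 (0.94 in edgeR), Col4a5 (0.088 and 0.94), Col5a2 (0.81 in edgeR), Col6a1 (0.53 and 1.66) and Col6a3 (0.15 and 1.22), each pair giving the pseudocount and then edgeR. The cause was not tested. With RLE size factors the all-gene median in the Cre comparisons became 0.06, 0.21, 0 and 0.03 from E15.5 to adult, -0.23 and -0.06 in the P0.5 and adult diaphragm steps, and 0 and 0.01 in those of spinal cord. These factors also moved mean summed levels of fibrillar chains to 1994, 1652 and 207.5 CPM in Cre-positive diaphragm at P0.5, P10 and adult, 2554 CPM in Cre-negative diaphragm at E15.5, and 271.7 and 115.6 CPM in spinal cord at E15.5 and P0.5. Basement membrane chains moved to 114.2 and 58.03 CPM in Cre-positive diaphragm at P0.5 and adult, 86.83 and 57.39 CPM in Cre-negative diaphragm at E15.5 and adult, and 9.956, 13.85 and 1.266 CPM in spinal cord at E15.5, P0.5 and adult. Other chains moved to 480.1, 345.6 and 104.4 CPM in Cre-positive diaphragm at P0.5, P10 and adult, 330.9 and 134.4 CPM in Cre-negative diaphragm at E15.5 and adult, and 89.36, 74.65 and 11.93 CPM in spinal cord at E15.5, P0.5 and adult. Of 102 counts over the pathway lists, 57 moved by more than 1.5 times without the intermediate libraries, 22 in edgeR, 18 with only the groups compared, 12 with RLE size factors, 10 without the filter, 7 with a pseudocount of 0.1 and 2 with the replicate block. Levels under the worth of 3 reads have no order.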
